A study of Mus musculus with 6 samples.

Results

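Delta (δ) cells, the somatostatin cells of the pancreatic islet, were picked out of 6 single-cell RNA-Seq libraries by their own transcripts. A δ cell barcode had more than 1000 detected genes, at most 10% of its UMIs (unique molecular identifiers, 1 per captured RNA molecule) on mitochondrially encoded genes, at least 3% on *Sst*, and less than 10% on *Ins1* and *Ins2* together. Of 43445 deposited barcodes, 19721 passed the limits on genes and mitochondrial UMIs, and 765 met the whole rule. WT libraries 1 to 3 gave 117, 159, and 93 of them, and KO libraries 1 to 3 gave 158, 122, and 116. The barcodes were chosen by their *Sst* and insulin shares, so their levels against other cells are a description and carry no test.

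The islets came from β14-3-3ζ–KO mice and their WT littermates, all of the C57/BL6 strain and 12 to 14 weeks old. In KO mice, the Ins1-CreThor driver acts on *Ywhaz* alleles whose exon 4 lies between LoxP sites. *Ywhaz* encodes the scaffold protein 14-3-3ζ (chromosome 15, 36770770 to 36796929 in GRCm38). The WT littermates carried Cre as well. Cre thus acts in cells that use the *Ins1* gene, and the deletion was aimed at β cells, not δ cells.

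Somatostatin is a peptide that acts on neighboring α and β cells through inhibitory receptors and so restrains the release of glucagon and insulin. δ Cells are a minority of the islet and send out long processes that touch many other cells. They sense glucose much as β cells do, answer ghrelin through its receptor, and are switched on by urocortin 3, which mouse β cells release with insulin. The somatostatin gene is known for a cAMP response element close to its start, and it is shown here because the rule for these cells rests on this gene. In GRCm38.p6 the element and its flanks lie at chr16:23890874-23890903 (minus strand), with the element in capitals (sequence from RefSeq):
Sst upstream site: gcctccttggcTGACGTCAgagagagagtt
The palindrome TGACGTCA spans bases 48 to 41 before the RefSeq start. GENCODE vM21 places the same bases in the first exon of *Sst*, as 5′ UTR. Of 32851 RefSeq windows of 250 bases before a start, 508 (1.55%) hold this palindrome. Windows for *Hhex*, *Rbp4*, *Ghsr*, *Ptprz1*, *Ppy*, *Pyy*, and *Gcg* do not hold these letters.

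The libraries differed in free RNA, that is, transcripts outside intact cells that are counted in every droplet. Endothelial barcodes, which should not make insulin, had a median of 0.602% insulin UMIs in WT library 1 and 7.26% in KO library 2, the lowest and highest of the 6. Medians of insulin UMIs in δ cell barcodes followed the same order at the ends, 0.484% in WT library 1 and 3.34% in KO library 2. The δ cell barcodes of a library summed to between 1900778 and 3266172 UMIs. No cell barcode occurred among the δ cell barcodes of more than 1 library. Scrublet, a doublet caller, marked 9 of the 765, which were kept.

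Among gene-rich barcodes, the share of δ cell barcodes was 6.64%, 3.14%, and 5.16% in WT and 6.86%, 1.92%, and 4.76% in KO. The genotypes overlapped, with means of 4.98 ± 1.76% in WT and 4.51 ± 2.48% in KO (SD, n = 3, 2-sided exact permutation test, p = 0.8, adjusted p = 0.9 over 4 tests). The gene-rich barcodes in the denominator numbered from 1761 to 6349 per library. Median UMIs per δ cell barcode were 22069, 17600, and 18584 in WT and 16109, 12809.5, and 16788.5 in KO. Every KO library lay below every WT library, which with 3 against 3 gives the smallest p this test allows (exact p = 0.1, adjusted p = 0.2).

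The label of these cells was checked against 7 δ cell markers, as CPM (UMIs of a gene scaled to a fixed total, after summing over the δ cell barcodes of a library). Insulin took 37.4% to 41.1% of UMIs in the median β barcode of a library, which lowers the CPM of other genes there. *Gcg* likewise took 187207 CPM or more in α libraries and *Ppy* 321953 CPM or more in PP libraries. CPM values of cell groups set side by side, here and below, are not corrected for this. *Sst* had to be higher in δ, since the other endocrine barcodes were held to under 1% *Sst*. In 5 of the 6 other markers, the lowest δ library lay above the highest α, β, or PP library, where 6.11% of the 19409 genes with a UMI in δ sums did so. α, β, and PP barcodes were gated in the same way on *Gcg*, insulin, and *Ppy*. *Hhex*, the homeobox factor required for δ cells, stood at 268, 238, and 211 CPM in WT and 237, 169, and 218 CPM in KO. All 6 values lay far above the highest α, β, or PP library at 9.21 CPM, and above the endothelial mean of 39.5 CPM. *Ghsr*, the ghrelin receptor, had 21.0 to 31.4 CPM in δ libraries and at most 1.49 CPM in the other endocrine groups. *Rbp4*, a retinol carrier, ranged from 3830 to 4746 CPM, against 628 to 860 CPM in α libraries. *Arg1*, an arginase, had 377 to 663 CPM in δ and at most 112 CPM elsewhere among endocrine groups. *Ptprz1*, a receptor tyrosine phosphatase, had 114 to 182 CPM, and at most 4.61 CPM in the other 3 groups. *Nrg1*, the growth factor neuregulin 1, was the exception. Its δ values of 4.52 to 7.94 CPM overlapped the α values of 0.548 to 6.92 CPM.

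**Figure D1:**
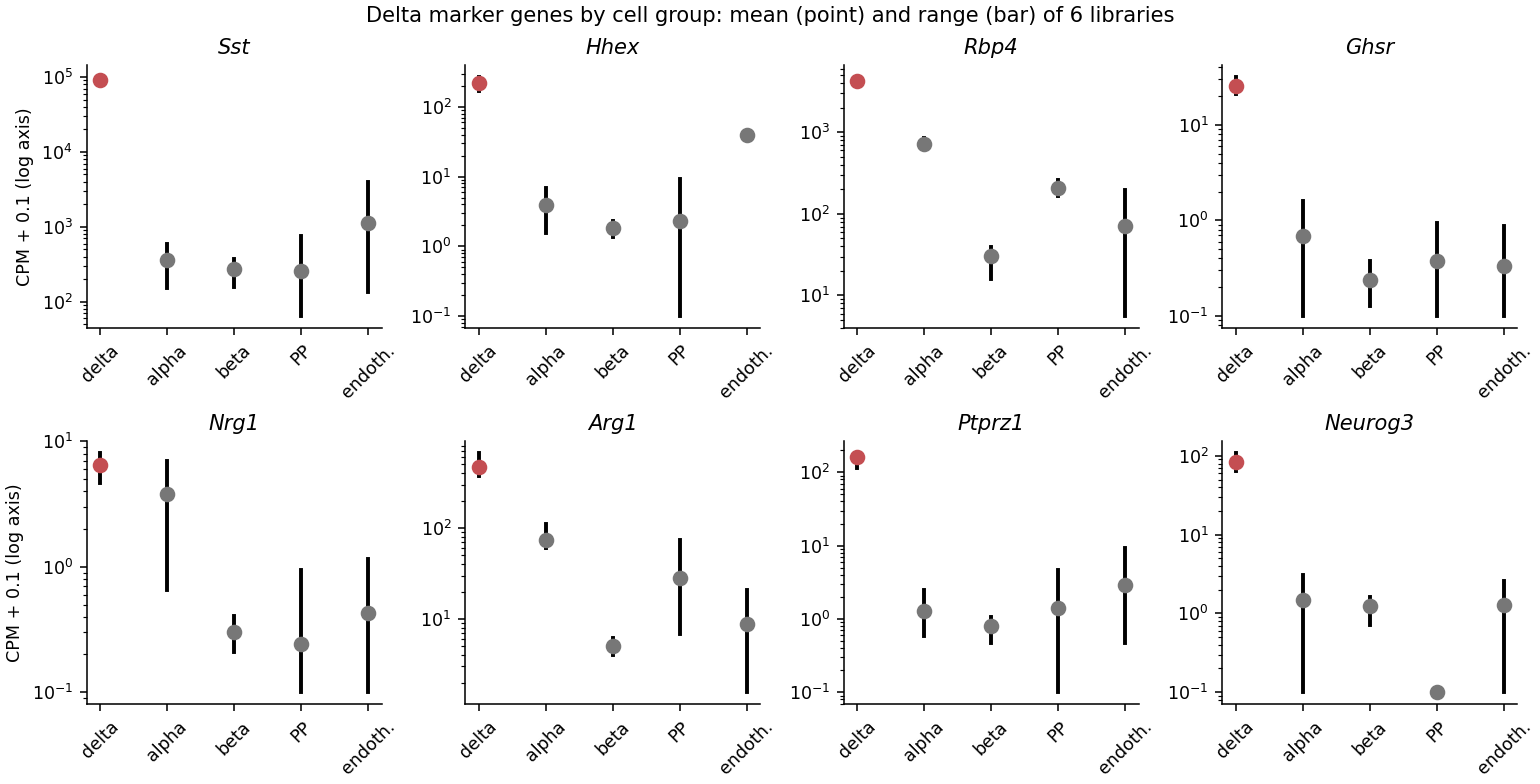
CPM of 8 genes in δ, α, β, PP, and endothelial barcodes, on a log axis after adding 0.1, with the point at the mean of 6 libraries and the bar from the lowest to the highest library. δ Values of *Nrg1* overlap those of α barcodes, while the other genes are higher in every δ library than in any α, β, or PP library (*Hhex* 169 to 268 CPM in δ, at most 9.21 CPM in the others).

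Markers of other lineages were low but not at 0. The 6 endothelial markers summed to between 4.21 and 34.2 CPM over the libraries, and the 5 stellate markers to at most 9.49 CPM. Macrophage markers summed to between 80.6 and 444 CPM, of which *C1qa*, a complement subunit, made up 70.4 to 120 CPM. *C1qa* had a UMI in 50.0% to 70.1% of δ cell barcodes of a library, and its partner *C1qb* in 1.90% to 5.66%. *Igkc*, the constant part of the antibody κ chain and a B cell marker, stood at 2882 CPM in KO library 2 and at no more than 103 CPM in the other 5. Of the 765, 43 also passed the macrophage gate and 2 the endothelial one. The macrophage gate asks for at least 5 UMIs on *C1qa*, *C1qb*, and *C1qc* together, so *C1qa* alone can meet it. Whether these transcripts came from outside the δ cells was not tested.

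Several genes besides the markers set δ cell barcodes apart. Among 3006 genes at a δ mean of at least 50 CPM, 543 (18.1%) were higher in every δ library than in any α, β, or PP library. After *Sst*, the largest ratios of the lowest δ library to the highest other library belonged to *Ptprz1* (24.7), *Bmp3* (24.5), *Neurog3* (21.8), *Gap43* (18.6), and *Hhex* (18.4). *Neurog3*, the factor that starts endocrine differentiation in the embryo, had 100, 71.0, and 108 CPM in WT and 88.2, 64.8, and 72.5 CPM in KO. It had a UMI in 47.5% to 76.9% of the δ cell barcodes of a library, and at most 2.98 CPM in the other 3 endocrine groups. *Bmp3*, a secreted member of the TGF-β family, ranged from 49.8 to 102 CPM, with at most 2.03 CPM elsewhere. *Gap43*, a growth-cone protein of neurons, ranged from 133 to 176 CPM in δ and reached 7.12 CPM elsewhere. *Cd24a*, a surface glycoprotein, ranged from 376 to 491 CPM, against at most 28.5 CPM. Also among the 20 largest ratios were *Cacna2d2* (an auxiliary calcium channel subunit, ratio 16.8), *Dpp6* (an auxiliary potassium channel subunit, ratio 10.2), and *Syt1* (a calcium sensor for vesicle release, ratio 9.80).

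Of 19 transcription factors of endocrine cells, 6 (31.6%) were higher in every δ library than in the other 3 endocrine groups: *Hhex*, *Isl1*, *Rfx6*, *Neurog3*, *St18*, and *Pou3f1*. Of all genes, 6.11% of those with a UMI and 18.1% of those at 50 CPM or more did so. The gene lists, here and in the other paragraphs, were chosen with earlier results of these data known. Several also share members with the δ cell markers, so their shares are descriptions and carry no test. *Isl1* had 399 ± 27.7 CPM (SD, n = 6), and the highest α, β, or PP library reached 259 CPM. *Pdx1*, the factor of β cells and of the embryonic pancreas, had 70.7 to 93.5 CPM in δ and 72.0 to 118 CPM in β libraries. The groups thus overlapped in CPM, where insulin lowers the β values. It was at most 29.4 CPM in α and PP libraries. *Pax4* had no UMI in any δ sum.

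Of 26 receptor genes, 5 (19.2%) were higher in every δ library than elsewhere, a share near the 18.1% of genes at 50 CPM or more and above the 6.11% of all genes. These were *Ghsr*, *Crhr2*, *Sstr1*, *Ffar4*, and *Ramp1*. *Ffar4*, a receptor for long-chain fatty acids, had 43.8 to 62.3 CPM in δ, 17.5 to 32.5 CPM in α, and at most 1.46 CPM in β libraries. *Ramp1*, a partner of the calcitonin receptor–like receptor, had 43.7 to 70.4 CPM, against at most 14.1 CPM. *Calcrl*, which encodes that receptor, had a mean of 0.870 CPM in δ and 138 CPM in endothelial barcodes. *Crhr2*, the receptor of urocortin 3, was found at 1.29 to 5.52 CPM and in 2.46% to 12.0% of the barcodes of a library. Of the somatostatin receptors, *Sstr3* had 46.0 ± 1.13 CPM (SD, n = 6) and overlapped the α and β ranges, while *Sstr1* had 3.02 to 10.4 CPM against at most 0.677 CPM. *Sstr4*, *Sstr5*, and *Crhr1* had no UMI in any δ sum.

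Transcripts of genes for excitability and fuel sensing were found at differing levels. *Abcc8*, a subunit of the ATP-sensitive potassium channel, had 457 to 519 CPM in δ libraries, all above the highest α, β, or PP value of 361 CPM. These are plain CPM, which do not rank δ against β, since insulin lowers the β values. Its partner *Kcnj11* had 56.6 to 88.7 CPM and a mean of 60.6 CPM in α. *Slc2a2*, the glucose transporter of β cells, had 4.14 to 19.6 CPM in δ, within the range of PP libraries (1.58 to 19.2 CPM) but for its highest value, and 116 CPM or more in β. Its lowest δ value came from WT library 1, which also had the least insulin RNA in endothelial barcodes. *Cacna1h*, a T-type calcium channel, had 18.1 to 39.8 CPM in δ and at most 3.37 CPM in the other groups. In all, 7 of 23 genes of this list (30.4%) were higher in every δ library, against 18.1% of genes at 50 CPM or more and 6.11% of all genes, among them *Abcc8*, *Cacna1a*, *Cacna1h*, *Scn9a*, *Ryr3*, and *Itpr3*.

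Of 20 secretory granule genes, *Chgb*, *Rab3b*, and *Vamp2* (15.0%) were higher in every δ library, a smaller share than the 18.1% of genes at 50 CPM or more. *Chgb*, a granin, had 3464 to 4807 CPM, and the highest other library 1264 CPM. *Pcsk1*, a prohormone convertase, was lower in δ (39.7 to 49.0 CPM) than in every β library (187 CPM or more). Among 19 adhesion and guidance genes, 8 (42.1%) were higher in every δ library, against the same 18.1% and 6.11%, among them *Ptprz1*, *Nrxn2*, *Cadm1*, *Dscam*, *Kirrel3*, *Cdh2*, and *Efna5*. *Ptprz1* is a marker counted above, and the list was chosen with earlier results known. *Dscam*, an adhesion molecule of neurons, had 23.0 to 44.9 CPM, against at most 3.46 CPM. Of 12 genes of arginine and retinoid metabolism, *Arg1*, *Rbp4*, and *Ass1* (argininosuccinate synthase) were higher in every δ library, 25% against 18.1% and 6.11%, and the first 2 are markers counted above. *Cela1*, a protease of acinar cells, had 84.7 to 159 CPM and a UMI in 45.7% to 58.1% of δ cell barcodes, and at most 54.4 CPM in other endocrine groups. The other acinar markers had δ means of 11.2 CPM or less.

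*Sst* made up 9.41%, 9.45%, and 9.04% of UMIs in the median WT δ cell barcode and 9.83%, 7.85%, and 9.49% in KO. Single barcodes ranged from 3.00%, the rule's limit, to 26.8%. Just outside this limit, 54 barcodes with 2% to under 3% *Sst* had a median of 28506.5 UMIs and 1.45% *Gcg*. Just inside, 64 barcodes with 3% to under 4% had 24524 UMIs and 0.139% *Gcg*. At the insulin limit, 26 barcodes with 8% to under 10% had a median *Sst* of 5.77%, and 22 with 10% to under 12% had 5.27%.

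*Pyy*, which encodes peptide YY, was a second hormone of nearly every δ cell barcode. Its medians were 3.95%, 4.23%, and 4.36% of UMIs in WT and 3.74%, 4.75%, and 3.95% in KO. It reached at least 1% in 741 of 765 (96.9%) and stayed under 0.2% in 4. Medians in endothelial barcodes were 0.0103% to 0.0503%. *Iapp*, the amyloid peptide known from β cells, had medians of 2.09% to 2.62% in δ libraries and at most 0.712% in endothelial ones. Summed over the barcodes, *Iapp* was 21485 to 28247 CPM in δ, 35060 CPM or more in β, and at most 4878 CPM in α and PP libraries.

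*Ppy*, pancreatic polypeptide, varied far more between barcodes. Its neighbor *Pyy* lies 5356 bases away on chromosome 11, on the same strand. Median *Ppy* was 2.91%, 1.76%, and 1.87% of UMIs in WT and 2.21%, 1.80%, and 2.09% in KO, against 0.0156% to 0.0606% in endothelial and 0.0189% to 0.0701% in macrophage barcodes. The genotypes overlapped, with means of 2.18 ± 0.638% in WT and 2.03 ± 0.212% in KO (SD, n = 3, exact permutation p = 0.9, adjusted p = 0.9). Single barcodes ranged from 0.0118% to 37.8%. *Ppy* was under 0.2% in 109 barcodes (14.2%), from 0.2% to under 1% in 108, from 1% to under 10% in 518 (67.7%), and at least 10% in 30 (3.92%). The *Ppy*-poor share lay between 12.9% and 16.4% in each of the 6 libraries. *Ppy*-poor barcodes had a median *Sst* of 10.7% and 15406 UMIs, and *Rbp4* at 3977 CPM. *Ppy* was therefore low in barcodes of ordinary depth with the δ cell markers.

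The 30 barcodes with at least 10% *Ppy* were deeper. They had a median of 36201.5 UMIs and 4.32% *Sst*, whereas the 656 with neither 5% *Gcg* nor 10% *Ppy* had 16364 UMIs and 10.2% *Sst*. The WT libraries held 4, 8, and 5 of the 30 and the KO libraries 1, 10, and 2. In the sums of these *Ppy*-rich barcodes, *Hhex* was 145 ± 53.7 CPM (SD, n = 6) and at most 9.21 CPM in PP libraries. Scrublet marked 0 of the 30, which allows a share of Scrublet calls of up to 10.0% and sets no limit on pairs of cells. Whether such barcodes are single cells was not tested.

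*Gcg*, glucagon, had another distribution. Median *Gcg* was 0.0465%, 0.102%, and 0.0876% of UMIs in WT and 0.104%, 0.175%, and 0.116% in KO. Medians in endothelial barcodes of the same libraries were 0.0430% to 0.231%, so *Gcg* in the median δ cell barcode did not stand above this background. Every KO library exceeded every WT library, with means of 0.0786 ± 0.0287% in WT and 0.131 ± 0.0378% in KO (SD, n = 3, exact permutation p = 0.1, the smallest possible, adjusted p = 0.2). The endothelial medians were also lowest in WT library 1 and highest in KO library 2, and their part in the difference was not tested. *Gcg* was under 1% in 653 barcodes (85.4%), from 1% to under 5% in 31, and at least 5% in 81 (10.6%). The last class numbered 1, 19, and 14 in WT and 10, 18, and 19 in KO. WT library 1 therefore held nearly none.

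**Figure D2:**
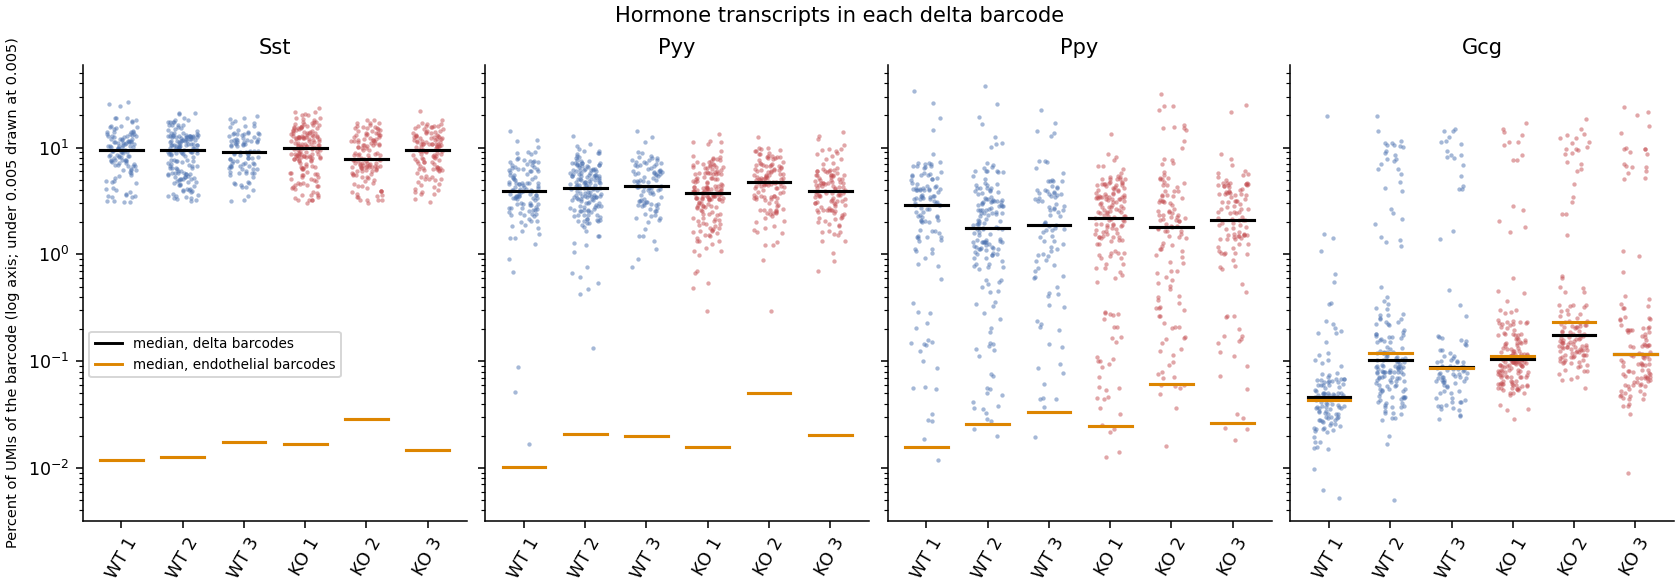
Percent of UMIs on *Sst*, *Pyy*, *Ppy*, and *Gcg* in each δ cell barcode (points, log axis) of 3 WT and 3 KO libraries, with the library median in black and the median of endothelial barcodes in orange. The *Sst* and *Pyy* medians lie far above the endothelial ones, *Ppy* spreads from 0.0118% to 37.8%, and *Gcg* medians lie close to the endothelial ones, with 81 barcodes at 5% or more.

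The 81 *Gcg*-rich barcodes carried both sets of markers. The median over these barcodes of α cell markers other than *Gcg* was 3624 CPM, against 126 CPM in barcodes with under 1% *Gcg*. *Ttr*, transthyretin, was 2744 CPM against 77.8 CPM in the median barcode. Their *Sst* was 5.54% against 10.2%, and *Rbp4* 2635 CPM against 4039 CPM. In sums per library, *Gcg*-rich barcodes lay between the other δ cell barcodes and α barcodes. *Ttr* was 4995 ± 1324 CPM (SD, n = 6 libraries), between 121 ± 35.6 CPM at under 1% *Gcg* and the α libraries at 8179 CPM or more. *Hhex* was 140 ± 25.2 CPM, between 242 ± 26.9 CPM and at most 6.86 CPM in α libraries. *Gcg*-rich barcodes also had more UMIs, a median of 26942 against 16397. Scrublet marked 0 of the 81, which allows a share of Scrublet calls of up to 3.70% and sets no limit on pairs of cells. Whether they are single cells with both hormones or pairs of cells was not tested. Only 2 barcodes were rich in both *Gcg* and *Ppy*.

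**Figure D3:**
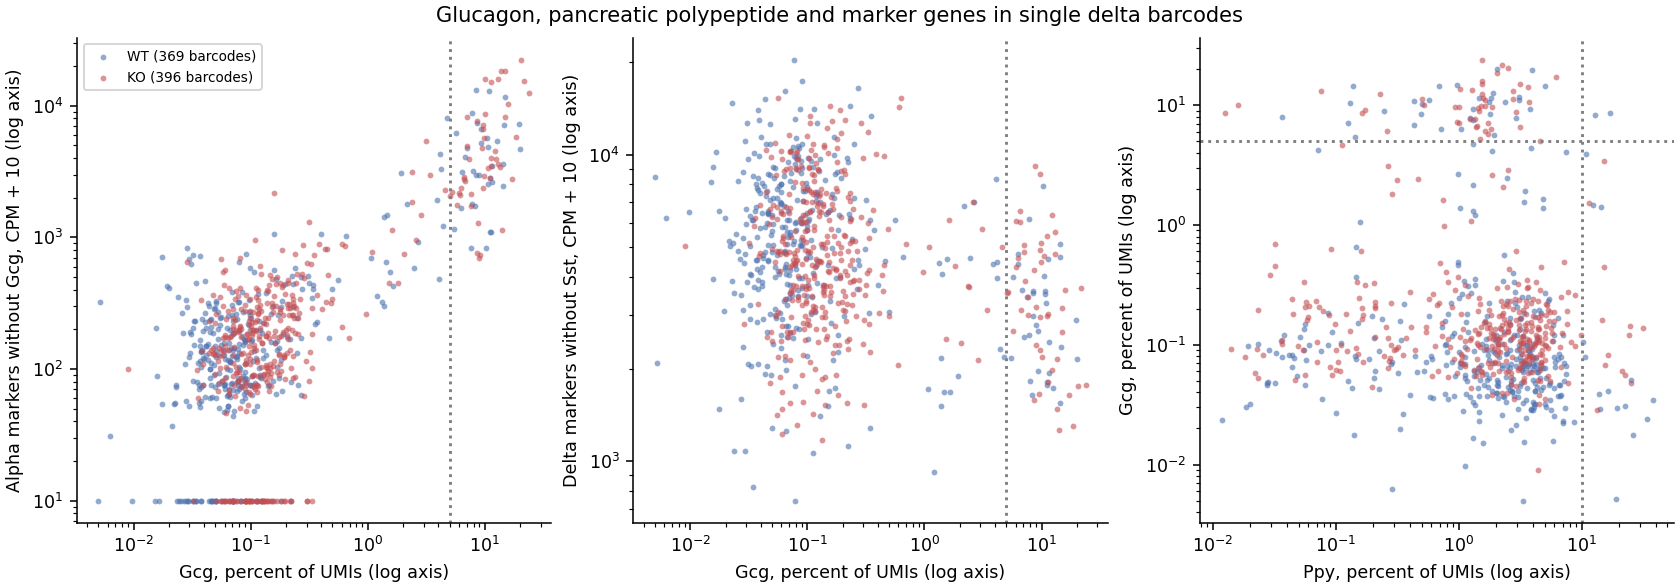
Single δ cell barcodes of WT and KO libraries: *Gcg* against the summed α cell markers without *Gcg* (left), *Gcg* against the summed δ cell markers without *Sst* (middle), and *Ppy* against *Gcg* (right), all on log axes, with 10 CPM added to the summed markers and dotted lines at 5% *Gcg* and 10% *Ppy*. Barcodes at 5% *Gcg* or more hold the highest α cell markers (median 3624 CPM) while keeping δ cell markers (median 3171 CPM).

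Each library was split into terciles by a hormone to describe what varied with it. Median *Gcg* of the upper tercile was 0.0969% in WT library 1, 0.232% in KO library 1, and 1.46% to 4.12% in the others. Among barcodes under 1% *Gcg* and 10% *Ppy*, *Gcg* rose with insulin in every library (Spearman 0.451 to 0.620). It fell with UMIs there (−0.362 to −0.252). The part of free RNA and depth in the *Gcg* split was not tested. Between the upper and lower tercile by *Gcg*, 258 of 3078 genes (8.38%) were higher in the upper tercile of all 6 libraries and 81 (2.63%) lower. *Ttr* led, with a mean log2 ratio of 4.36, and *Tmsb15b2* (3.03), *Slc7a2* (2.43), *Slc30a8* (2.41), and *Lpl* (2.40) were also among the largest. *Ttr* and *Slc7a2* are α cell markers. Immediate early genes *Fosb* (mean log2 ratio −0.98) and *Ier2* (−0.51) and the vesicle genes *Rab3b* (−0.45) and *Syt1* (−0.38) were lower in the upper tercile of every library. By *Ppy*, 107 of 3123 genes (3.43%) were higher in the upper tercile and 60 (1.92%) lower in all 6 libraries. What share would do so in terciles drawn without regard to a hormone was not tested. Neither these shares nor those by *Gcg* have that reference. The inhibitor of bHLH factors *Id3* had the largest ratio (0.81) and the calcium-binding protein *Calb1* had 0.53, with 0.0110 in its lowest library. *Lpl* (lipoprotein lipase, −1.16), *Nupr1* (−1.07), and the zinc transporter *Slc30a8* (−0.90) were lower in the *Ppy*-rich tercile. *Slc30a8* and *Lpl* thus ran in opposite directions in the 2 splits. The splits are not independent, since *Gcg*-rich barcodes had a median *Ppy* of 1.49%, against 2.26% at under 1% *Gcg*. The part of *Gcg*-rich barcodes in the *Ppy* split was not tested. Over barcodes of a library, the Spearman correlation of *Ppy* with *Gcg* ranged from −0.296 to 0.0570 and that of *Ppy* with *Sst* from −0.194 to −0.0389. Barcodes share their library and depth, and these are descriptions.

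δ Cells of KO and WT mice were then compared to see whether deletion of *Ywhaz* in β cells was accompanied by changes in δ cells. UMIs were summed per library and tested with edgeR's quasi-likelihood test over 9599 genes, with counts scaled by TMM (trimmed mean of M values). A gene was called at a Benjamini-Hochberg FDR under 0.05 with an absolute log2 fold change above 0.1. No gene was called (0% of 9599), and 287 (2.99%) had an unadjusted p under 0.05. DESeq2 also called 0, with 69 below that p. A fit that paired libraries by replicate number, as a block, called 6 genes (0.0625%), with 570 below that p. The fit without the block leaves out this pairing, although same-numbered libraries deviated together (correlations from 0.226 to 0.570, other pairs from −0.634 to 0.111). Its share under that p therefore does not show that differences were absent. In counts simulated at this depth, with 1 common spread for every gene, 91% of genes with a 2-fold change were recovered. The differing spread of real genes was not simulated, so this does not show that 2-fold changes were absent. Without the block, *Gm10076* was not called at a log2 fold change of −1.17 (SE 0.26).

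*Ywhaz* itself stood at 187, 192, and 203 CPM in WT δ cell barcodes and 186, 188, and 197 CPM in KO. The genotypes overlapped (log2 fold change −0.003, SE 0.0956, adjusted p = 1.00 in edgeR). In β cell barcodes, *Ywhaz* was 130, 176, and 164 CPM in WT and 21.7, 21.0, and 20.7 CPM in KO. The KO and WT β libraries were far apart. Plain CPM does not rank δ against β, since insulin lowers the β values. Scaled jointly by TMM, WT libraries had 156, 167, and 176 CPM in δ and 178, 204, and 189 CPM in β. Whether the genotype difference was another in δ than in β was tested with limma-voom over 9024 genes, libraries being a random block, and 1 gene (0.0111%) was called, *Ywhaz*. Its log2 fold change was larger in δ than in β by 2.90 (SE 0.0991, limma adjusted p = 2.33e-10). α Cell barcodes had 102, 153, and 138 CPM in WT and 108, 150, and 131 CPM in KO, so there too the genotypes overlapped. PP barcodes had 91.5, 111, and 92.6 CPM in WT and 61.3, 91.5, and 74.8 CPM in KO, where the highest KO library lay level with the lowest WT library. The other 14-3-3 genes that passed the filter had log2 fold changes between −0.05 and 0.13 in δ cells, and none was called.

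**Figure D4:**
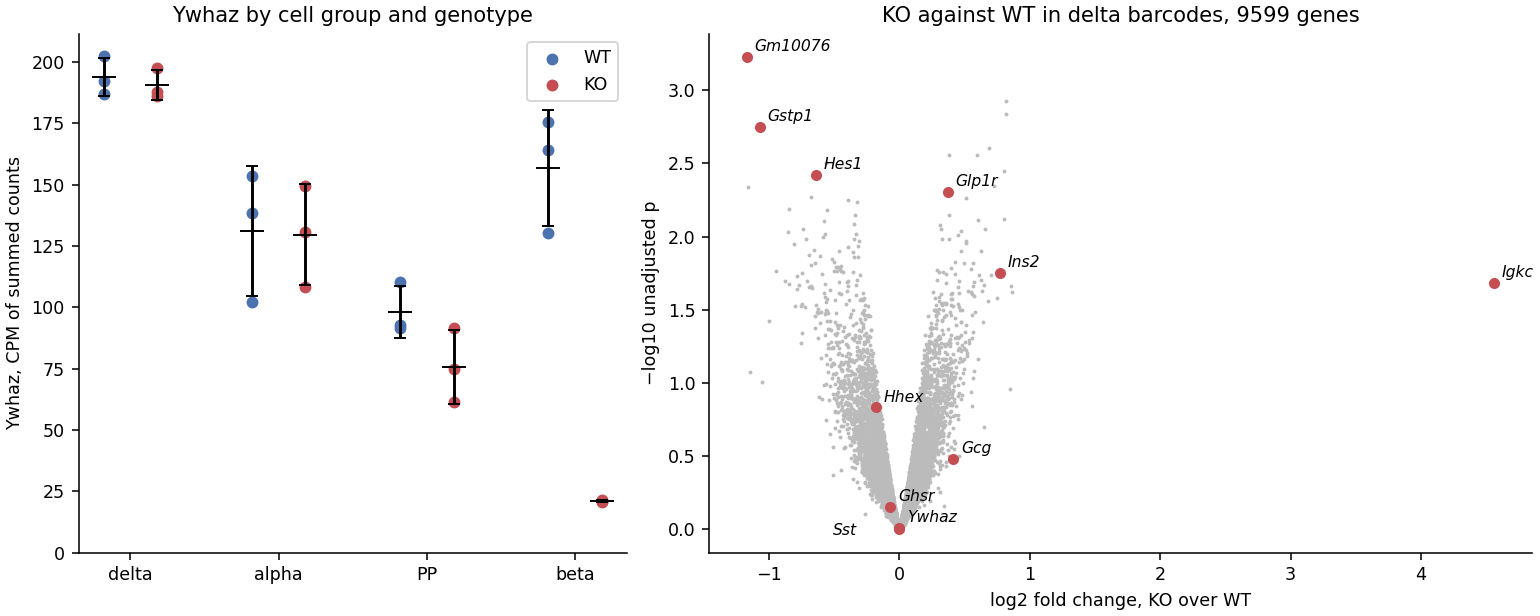
Left, *Ywhaz* CPM in δ, α, PP, and β barcodes of 3 WT and 3 KO libraries (points) with mean and SD. Right, log2 fold change and −log10 unadjusted p of 9599 genes in δ cell barcodes, with 11 genes labelled. *Ywhaz* in KO libraries stays at 186 CPM or more in δ and falls to at most 21.7 CPM in β, and no gene on the right passed the adjusted threshold.

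The 6 genes called with the block were *Gm10076*, *Gstp1*, and *Rpl35*, lower in KO, and *Ttr*, *Ins2*, and *Igkc*, higher in KO. The rule capped insulin in these barcodes, so the *Ins2* value is a description. *Gm10076*, a predicted gene, was 119, 308, and 181 normalized CPM in WT and 73.7, 90.2, and 109 in KO. Its KO libraries lay below its WT libraries (log2 fold change −1.17, SE 0.26, edgeR adjusted p = 1.00 without the block and 0.000105 with it). *Gstp1*, a glutathione transferase with a near-identical neighbor, was 19.6, 40.6, and 41.6 in WT and 13.2, 14.5, and 20.4 in KO, which overlapped. The ribosomal protein gene *Rpl35* overlapped too, and reads of *Rpl35* and *Gm10076* may be shared with copies elsewhere. *Ins2* was 7616, 22065, and 13268 in WT and 18844, 32101, and 22377 in KO normalized CPM. Insulin in endothelial barcodes was likewise lowest in WT library 1 and highest in KO library 2, and its part in this difference was not tested. *Ttr* had a log2 fold change of 0.65 in all δ cell barcodes and −0.06 without those rich in *Gcg* or *Ppy*. *Igkc* rested on KO library 2 (3076 against at most 106 elsewhere).

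The 10 genes with the lowest p in each direction are given next, and none of these 20 passed the adjusted threshold. Over all genes tested, 806 (8.4%) had KO libraries that all lay above or all below WT, 4.19% above and 4.21% below. *Glp1r*, the GLP-1 receptor, was 106, 103, and 111 normalized CPM in WT and 159, 130, and 124 in KO (log2 fold change 0.37, SE 0.11, unadjusted p = 0.00498, edgeR adjusted p = 1.00). *Glp1r* is also a β cell gene, with a mean of 503 CPM in β and 97.5 CPM in endothelial barcodes. The 6 β cell markers other than the insulin genes, which the rule capped, had a median log2 fold change of 0.35 in δ cell barcodes, with 5 of 6 higher in KO, and their part in the *Glp1r* value was not tested. *Hes1*, a target of Notch, was 28.4, 25.9, and 34.0 in WT and 15.5, 22, and 19.5 in KO (log2 fold change −0.64, SE 0.18, unadjusted p = 0.00379, edgeR adjusted p = 1.00). *Cttnbp2*, a cortactin-binding protein of neurons, was 13.2, 10.9, and 15.1 in WT and 25.1, 24.1, and 18.7 in KO (log2 fold change 0.82, SE 0.20, unadjusted p = 0.00118 in edgeR). *Tnfrsf1a*, a TNF receptor, was 24.0, 23.1, and 23.7 in WT and 33.7, 39.7, and 28.7 in KO (log2 fold change 0.52, SE 0.16). The others were *Cdhr2*, *Slc7a4*, *Cdk2ap1*, *B830017H08Rik*, *Osgepl1*, *Setd6*, and *Naa15*, with higher values in KO, and *Gm10076*, *Gstp1*, *Myg1*, *Ccdc73*, *Rpl35*, *Frk*, *Slc16a12*, *Gm16638*, and *Xrcc4*, with lower ones.

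By list, no gene of δ cell identity or function passed the test without the block, from which the log2 fold changes below come. *Sst* is set apart, since its share chose the barcodes in both genotypes. Of the other 6 δ cell markers, 5 were tested and 0 called, with a median log2 fold change of −0.18, where that over all genes was −0.002. Of 17 tested transcription factors, 11 receptors, 17 genes of excitability and fuel sensing, 20 of the secretory granule, and 12 of ER stress, 0 were called, with medians of −0.01, −0.02, −0.03, 0.01, and 0.03. The 4 mitochondrial genes that the study singled out in β cells, *Uqcc2*, *Atp5g1*, *Ndufa4*, and *Smdt1*, had values between 0.04 and 0.16 in δ cells, with 0 called. The test of δ against β called only *Ywhaz*, so no difference from β cells was called for these 4 either. Of 78 tested respiratory chain subunits, 53 had higher and 25 lower values in KO, with a median of 0.04 and 0 called. α cell markers had a median of 0.31 over 6 tested, 5 higher and 1 lower in KO, beside the uneven numbers of *Gcg*-rich barcodes given above. The libraries came from 3 WT and 3 KO mice, and the p-values measure the spread between libraries.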

How the data were processed

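Islets recovered overnight before dispersal, and live cells were captured with 10x 3′ v3.1 chemistry. The authors deposited, for each of 6 libraries, a matrix of UMI counts over 32285 genes made with Cell Ranger 6.0.2. The submitters' processing notes name Seurat and the mm10 build. From these counts, δ, α, β, PP, endothelial, and macrophage barcodes were gated as percents of UMIs. α Barcodes had at least 5% *Gcg*, PP barcodes at least 10% *Ppy*, and β barcodes at least 20% insulin and over 2500 genes. All 3 groups had under 1% *Sst*, β barcodes also under 1% *Gcg* and *Ppy*, and α and PP barcodes under 10% insulin. Endothelial barcodes had at least 5 UMIs on *Pecam1*, *Plvap*, and *Cdh5* together, and macrophage barcodes at least 5 on *C1qa*, *C1qb*, and *C1qc* together. Counts were summed per library, the replicate. Gene positions came from GENCODE vM21.

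KO and WT were compared with edgeR 4.0.16 (quasi-likelihood test, R 4.3.3) on genes detected in over 15% of the δ cell barcodes of WT or KO. The genotype by cell type term used limma 3.58.1, single values an exact permutation test over libraries (scipy 1.17.1), and DESeq2 1.42.0 was an alternative. The edgeR and limma scripts were tested on simulated counts. Scrublet used its automatic threshold in 3 libraries and its top scores in the other 3, where that threshold marked under 0.5%. Same-numbered WT and KO libraries deviated together (correlations from 0.226 to 0.570 over 3054 genes, other pairs from −0.634 to 0.111), so the fit with the replicate number as a block is given where it changed a call. The named genes were those of the lists, the 10 lowest p-values in each direction, the 20 largest ratios of δ to other endocrine libraries, and the 10 largest and smallest ratios between hormone terciles. The members and lists were chosen with earlier results of these data known. Intervals and limits cover counting error only. Some listed genes are not reported here.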

Additional observations from a re-analysis of the deposited data

Results flagged for a closer look

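The KO against WT difference in *Ywhaz* was not the same in δ and β cell barcodes. The log2 fold change in δ exceeded that in β by 2.90 in the test of the genotype by cell type term, with a range of 2.83 to 2.98 over the alternatives, and the KO libraries were lower than every WT library in β and not in δ.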

How the results depend on the processing

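The difference in the share of δ cell barcodes ranged from −1.64 to 0.832 percentage points when each library was left out in turn, and turned positive without WT replicate 1 (0.368) or KO replicate 2 (0.832). The difference in median *Ppy* ranged from −0.358 to 0.221 when each library was left out, turned positive without WT replicate 1 (0.221), was 0.255 with at most 5% of UMIs on mitochondrial genes, and was 0.0200 without barcodes rich in another hormone. With 3 libraries a group no p could pass the threshold, so these p-values say nothing about stability. Genes called in δ cells numbered 0 in the reported fit, 11 with no filter on low values, and between 0 and 2 when each library was left out, the 2 being *Gm10076* and *Gstp1* without WT replicate 1. With the replicate number as a block they numbered 6, with 570 at an unadjusted p under 0.05 against 287 without the block, and the block changed no other call. The log2 fold change of *Ywhaz* in δ cells lay near 0 and changed sign with *Sst* of at least 5% (0.0581), with insulin under 5% (0.00945), without barcodes rich in another hormone (0.0304), and over a range of −0.0472 to 0.0413 when each library was left out. Of single genes, *Ttr* was −0.0598 without barcodes rich in another hormone and *Igkc* ranged from −5.24 (without KO replicate 2) to 6.79 when each library was left out. The other 98 values of the comparisons and 374 values of single genes kept their direction and their side of the threshold, and 13 values of single genes passed it under an alternative alone. With 93 to 159 δ cell barcodes a library, genes under 15% detection were not tested.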
